A study of Mus musculus with 30 samples.

Results

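SMARCA4 and SMARCA5 were compared on the chromatin of untreated mouse embryonic stem cells, through 4 lists of ChIP-seq peaks made with a biotin tag on the remodeler, 2 lists for each, out of 20 lists and 30 samples in the series. A peak is a stretch of the genome where a caller found more sequenced fragments from the pulled-down chromatin than in its background. The rule took the peaks of these 4 lists on chromosomes 1 to 19 and X of the GRCm38 build, merged peaks that overlap by at least 1 bp, and asked in which lists each merged region has a peak. Of 117524 merged regions, 23472 held a peak in all 4 lists and were called shared (20% of the regions). A further 16793 (14.3%) held a peak in both SMARCA4 lists and in neither SMARCA5 list and were called SMARCA4-distinct. The reverse held for 1873 (1.59%), called SMARCA5-distinct, and the other 75386 regions were mixed.

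All cells were E14 embryonic stem cells, an established line, in which CTCF carries an auxin-inducible degron (AID). The SMARCA4 libraries came from cells of the genotype CTCF AID and biotin-SMARCA4, and the SMARCA5 libraries from cells of the genotype CTCF AID and biotin-SMARCA5. Neither had received IAA, the auxin that triggers degradation of CTCF, and both grew in serum-free medium with LIF, PD0325901 and CHIR99021. Each remodeler was thus read in its own cell line, and the labels do not say whether a line was 1 clone or whether replicates were separate cultures, so cell line and remodeler cannot be told apart. The CTCF and SMC1A lists of untreated cells (1 library each) and the remodeler lists after 12 h of IAA served as further measurements. With 2 libraries against 2, an exact two-sided permutation test cannot give a p below 0.333, so no difference between the remodelers could be called. Each value below is therefore given per library, in the order replicate 1 and replicate 2, with a statement on whether the groups overlap.

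SMARCA4, also known as BRG1, is the ATPase of the BAF (SWI/SNF) complexes, which slide and evict nucleosomes and keep enhancers and promoters accessible. SMARCA5, also known as SNF2H, is an ATPase of the ISWI family, which spaces nucleosomes into regular arrays and is known for its role in ordering nucleosomes around CTCF sites. CTCF recognises a long directional motif through its zinc fingers and halts cohesin, the ring complex of which SMC1A is a subunit.

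The sequences that carry the comparison are shown first, from the RefSeq GRCm38.p6 genome. The region with the highest mean rank in each of the 2 distinct classes is given as 200 bp around its summit, plus strand. They are the SMARCA4-distinct region 107331 bp from the pseudogene Gm12380 (chr4:38371149-38371348, intergenic) and the SMARCA5-distinct region 54 bp from the start of the microRNA gene Mir6546 (chr1:171064498-171064697, with its summit in an annotated exon and at a CTCF summit). Capitals mark ATGCAAAT, the octamer bound by POU factors such as OCT4.
Gm12380, SMARCA4-distinct: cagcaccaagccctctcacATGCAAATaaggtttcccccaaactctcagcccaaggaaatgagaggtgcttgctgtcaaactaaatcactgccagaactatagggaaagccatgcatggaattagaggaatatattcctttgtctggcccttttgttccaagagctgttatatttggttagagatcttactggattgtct
Mir6546, SMARCA5-distinct: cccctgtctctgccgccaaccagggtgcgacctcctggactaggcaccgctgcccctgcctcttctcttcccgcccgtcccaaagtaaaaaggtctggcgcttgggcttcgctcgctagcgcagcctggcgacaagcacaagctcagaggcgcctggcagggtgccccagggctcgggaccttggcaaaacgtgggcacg
The octamer occurred once in the SMARCA4-distinct window and not in the SMARCA5-distinct one. These are single windows, and the shares over each class are given below.

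The SMARCA5-distinct summit by Mir6546 lay 137 bp from the middle of n-TGtcc1, a glycine tRNA gene. This gene is printed on its own strand with 60 bp to either side, because tRNA genes ranked far apart in the lists of the 2 remodelers. The gene n-TGtcc1 lies at chr1:171064699-171064770 (minus strand). Capitals mark the letters GTTCGANNC, the core of the B box, an element inside tRNA genes that the RNA polymerase III factor TFIIIC binds.
n-TGtcc1: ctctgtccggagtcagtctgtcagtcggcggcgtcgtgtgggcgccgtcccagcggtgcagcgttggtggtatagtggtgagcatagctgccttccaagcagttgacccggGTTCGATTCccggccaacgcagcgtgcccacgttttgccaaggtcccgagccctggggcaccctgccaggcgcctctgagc
The region was among the strongest of the SMARCA5 lists, at percentiles 99.99 and 99.99. A percentile here is a peak's rank by −log10 p within its own list, where 100 is the strongest peak.

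For CTCF, the site with the highest CTCF −log10 q is printed for each of 3 kinds. Each is on the strand of the G-rich motif, starting 25 bp before the motif, with the motif in capitals. At the site 1319 bp from a start of Myo15b (chr11:115859691-115859965, plus strand) all 4 lists had a summit within 250 bp of the motif. At the site 14886 bp from a start of Med4 (chr14:73524671-73524945, minus strand) both SMARCA4 lists had a summit and neither SMARCA5 list had a peak. At the site 10930 bp from 2300002M23Rik (chr17:35578346-35578620, plus strand) it was the reverse.
Myo15b, all 4 lists: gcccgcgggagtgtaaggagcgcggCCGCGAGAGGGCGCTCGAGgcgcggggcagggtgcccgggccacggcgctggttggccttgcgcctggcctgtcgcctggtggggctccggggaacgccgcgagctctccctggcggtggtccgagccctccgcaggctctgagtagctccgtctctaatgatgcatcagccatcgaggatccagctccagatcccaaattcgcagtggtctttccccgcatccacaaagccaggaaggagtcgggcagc
Med4, SMARCA4: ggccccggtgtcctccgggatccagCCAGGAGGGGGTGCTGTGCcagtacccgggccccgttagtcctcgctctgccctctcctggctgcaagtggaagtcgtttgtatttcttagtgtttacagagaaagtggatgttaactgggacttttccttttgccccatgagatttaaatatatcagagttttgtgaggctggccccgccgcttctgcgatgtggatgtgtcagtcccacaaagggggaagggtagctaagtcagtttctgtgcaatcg
2300002M23Rik, SMARCA5: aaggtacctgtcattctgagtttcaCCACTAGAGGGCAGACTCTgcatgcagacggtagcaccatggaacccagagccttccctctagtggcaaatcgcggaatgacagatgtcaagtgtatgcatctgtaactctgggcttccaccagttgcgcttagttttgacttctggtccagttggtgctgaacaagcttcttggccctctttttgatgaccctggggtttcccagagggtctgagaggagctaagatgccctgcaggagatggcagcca
Relative to the motif centre, with positive values on the 3′ side, the summits at the Myo15b site lay at −100 and −65 bp in SMARCA4 and at 60 and 131 bp in SMARCA5. Those at the Med4 site lay at −236 and −113 bp, and those at 2300002M23Rik at 145 and 103 bp. The SMARCA4 summits at the Myo15b and Med4 sites thus lie before the printed stretches. These are single sites and do not show the usual side. Over all CTCF sites, 70.0% and 63.5% of SMARCA4 summits were on the 3′ side, as given below.

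Most SMARCA5 peaks overlapped a SMARCA4 peak. SMARCA4 had 92452 and 70427 peaks and SMARCA5 had 55470 and 73222, so list lengths overlapped between the remodelers. SMARCA4 peaks were wider, with a median width of 647 and 589 bp against 358 and 359 bp, and covered 90.3 and 63.6 Mb against 26.8 and 36.6 Mb. The highest fold enrichment, the caller's ratio over its background, was 79.9 and 61.2 in SMARCA4 and 23.9 and 28.2 in SMARCA5. Neither width, coverage nor top enrichment overlapped between the groups (exact permutation p of 0.333 for width and coverage). No read depth is in the files, so how far depth or pull-down efficiency moves with these values was not tested.

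**Figure D1:**
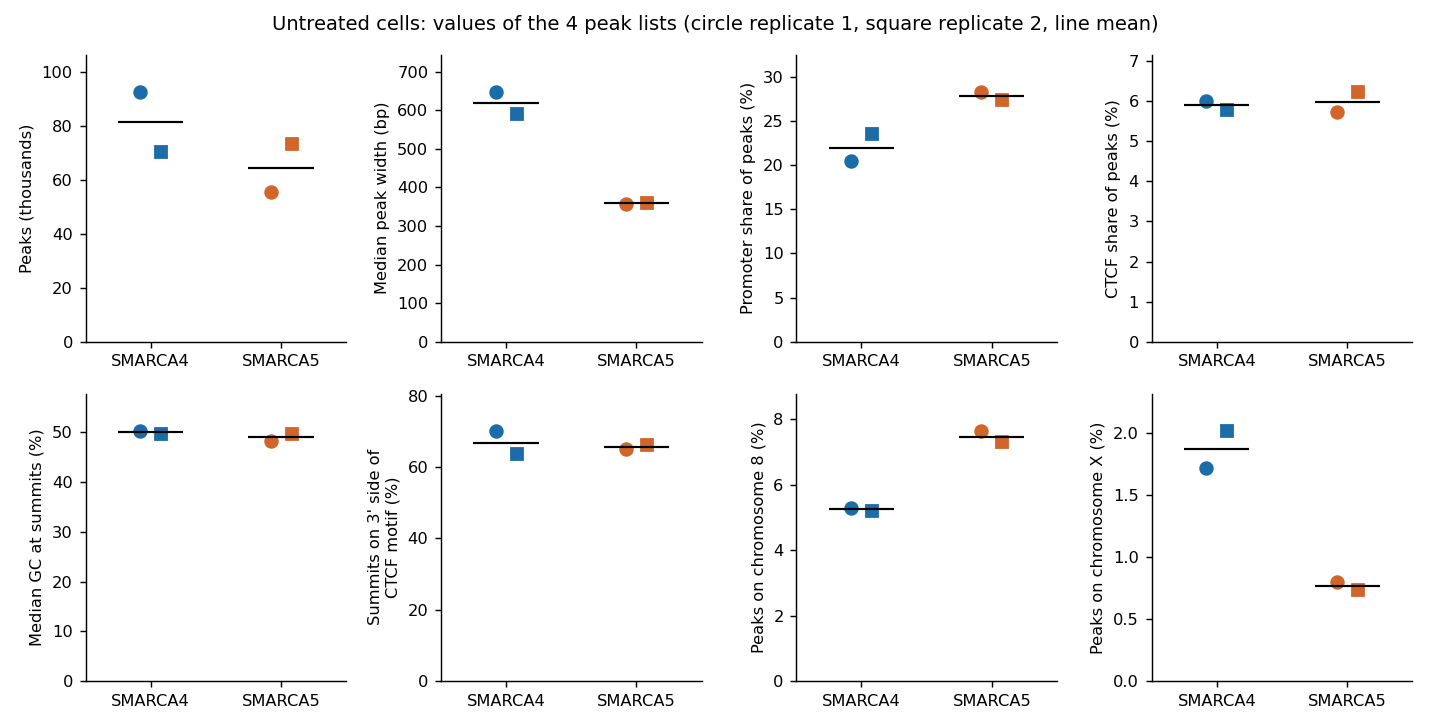
Values of the 4 lists from untreated cells, 1 panel per measure, with the measure and its unit on the vertical axis and the remodeler on the horizontal axis. Circles are replicate 1, squares are replicate 2 and black lines are means of 2 libraries. Peak width, promoter share and the shares on chromosomes 8 and X separate the remodelers, while list length and the CTCF share do not.

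Of the SMARCA5 peaks, 82.3% of replicate 1 and 78.8% of replicate 2 overlapped a peak of SMARCA4 replicate 1. Against SMARCA4 replicate 2 the shares were 73.3% and 68.2%. In the other direction, 33.9% and 42.4% of the peaks of SMARCA4 replicate 1 overlapped a peak of SMARCA5 replicate 1 and replicate 2, and 41.4% and 50.8% of those of SMARCA4 replicate 2. A SMARCA5 peak was therefore more often matched in a SMARCA4 list than in the second SMARCA5 list, where 68.7% of replicate 1 and 50.7% of replicate 2 had a match, while 59.8% and 85.7% of the SMARCA4 peaks were matched in the second SMARCA4 list. SMARCA4 peaks are the wider ones, and with each peak replaced by its summit and 100 bp to either side the shared regions fell from 23472 to 7084 and the SMARCA5-distinct regions rose from 1873 to 11623. By base pairs the picture differed. The Jaccard index, the shared base pairs over all base pairs covered by either list, was 0.543 within SMARCA4, 0.350 within SMARCA5 and 0.223 to 0.324 between them. The mean within minus the mean between remodelers was 0.172 (exact one-sided p of 0.333, the smallest the 3 possible pairings allow). It was 0.0690 with summit windows, 0.0575 and 0.0938 without SMARCA4 replicates 1 and 2, and 0.301 without SMARCA5 replicate 2.

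The overlap rose with rank in every list. In the weakest 10% of peaks, 49.5% and 42.5% of SMARCA5 peaks lay in both SMARCA4 lists, against 3.98% and 9.09% of SMARCA4 peaks in both SMARCA5 lists. In the strongest 10% the values were 95.2% and 95.1% for SMARCA5 and 87.4% and 87.8% for SMARCA4. Peaks found in neither list of the other remodeler made up 51.7% and 42.5% of the SMARCA4 lists and 14.9% and 18.2% of the SMARCA5 lists. In the strongest 10% they fell to 3.95% and 3.99% and to 1.59% and 1.62%. By overlap of at least 1 bp, most of the strongest peaks of either remodeler were thus in both lists of the other. The share in neither list was largest in the weakest 10%, at 82.6% and 70.1% in SMARCA4 and 29.2% and 33.6% in SMARCA5. This count by rank used whole peaks and was not repeated with summit windows.

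**Figure D2:**
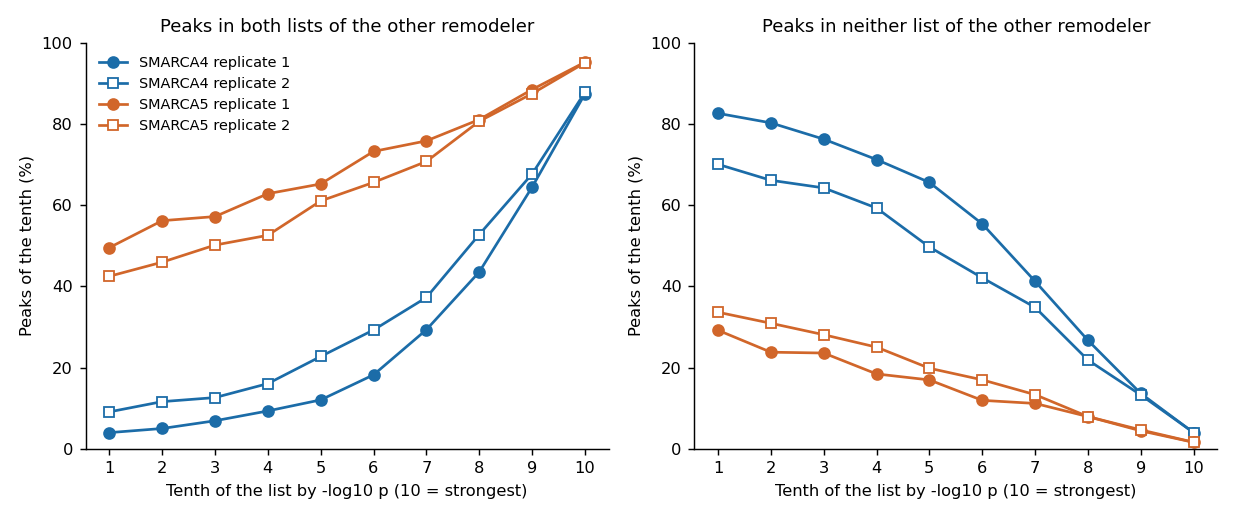
Share of peaks (vertical axis, %) found in both lists (left) or in neither list (right) of the other remodeler, by rank within the list in 10 equal steps (horizontal axis, 10 is the strongest by −log10 p). Lines are the 4 lists. All 4 lines meet near the top rank, with 87.4% to 95.2% of peaks in both lists of the other remodeler, and spread apart at low rank.

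The strongest shared regions included the miR-290 locus. The 8 with the highest mean percentile included 2 regions at 5641 and 11707 bp from Mir290a, the first hairpin of the miR-290 cluster that embryonic stem cells transcribe at a high level (chr7:3207912-3215836 and chr7:3200623-3207475). Their fold enrichment at the first region was 36.1 and 36.3 in SMARCA4, against 9.97 and 10.99 for SMARCA5. At the second it was 34.3 and 34.8 against 10.2 and 9.70. The region with the highest mean percentile lay 44325 bp from Gm22458, and the others nearest to A830018L16Rik, Gm31763, Gm13998, Oaz2-ps and Gm12851. None of the 8 was within 1 kb of a start site, where 36.7% of all shared regions lay. None was at a CTCF summit, against 6.98% of all shared regions, and each was overlapped by a CHD4 peak of replicate 1, against 95.4%.

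SMARCA4-distinct regions lay farther from start sites than the other classes compared. Of these regions, 51.8% lay more than 10 kb from a start site, against 36.7% of the SMARCA5-distinct, 34.5% of the shared and 45.6% of all regions. By annotation, 45.0% were distal in introns, 38.1% distal and intergenic and 12.5% at promoters. The octamer was present in the 201 bp around the summit of 2.47% (exact 95% interval 2.23 to 2.73) of distal SMARCA4-distinct regions and of 0.824% (0.439 to 1.40) of distal SMARCA5-distinct ones, where distal means more than 1 kb from a start site. Among distal regions of all kinds it was 1.63%. The SOX letters ACAAAGG were in 7.24% against 3.99%, with 5.86% in all distal regions. The TEAD letters ACATTCC were in 4.77% against 2.15%, with 3.57% in all, and the KLF letters GGGNGTGG in 10.6% against 6.40%, with 9.56% in all. Shared distal regions held the octamer in 2.16% and the SOX letters in 7.46%, near the SMARCA4-distinct values. Both strands were searched, and a match is a run of letters, not a bound site. The ESRRB letters TCAAGGTCA were in 1.80% against 0.634%, with 1.37% in all. For the other motifs searched the exact 95% intervals of the 2 distinct classes overlapped, among them AP-1 (TGANTCA, 7.52% and 6.27%), TCF/LEF (CTTTGAT, 3.82% and 3.17%) and the E-box (CACGTG, 4.07% and 3.23%). The regions are not independent samples of a condition, so these intervals cover counting error only.

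The 8 highest-ranked SMARCA4-distinct regions lay nearest to Gm12380, Gm14970, Gm37180, Gm9443, Gm6101, Gm11871, Lpar4 and Samd4. Their mean percentiles ran from 98.0 to 99.3, all 8 were distal and 2 of them were on chromosome X. At the first, fold enrichment was 23.9 and 27.4.

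SMARCA5-distinct regions were fewer and more often at CTCF. The share at a CTCF summit (within 250 bp) was 12.8% against 4.00% in SMARCA4-distinct regions and 6.98% in shared ones, a difference between the distinct classes of −8.76 points (Newcombe 95% interval −10.4 to −7.29, counting error only). SMC1A peaks overlapped 10.9% against 4.01%, and 18.3% of shared regions. Windows of which more than 50% is soft-masked as repeat made up 17.3% against 10.7%. CpG-rich windows (GC of at least 55% and an observed to expected CpG ratio of at least 0.6) were 1.87% of SMARCA5-distinct, 5.70% of SMARCA4-distinct and 21.3% of shared regions. The CTCF difference depended on how peaks were matched. With each peak replaced by its summit and 100 bp to either side, 4.94% of SMARCA5-distinct and 4.89% of SMARCA4-distinct windows were at CTCF. It was −6.94 points without SMARCA4 replicate 2, −4.37 without SMARCA5 replicate 1 and −3.26 without SMARCA5 replicate 2.

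**Figure D3:**
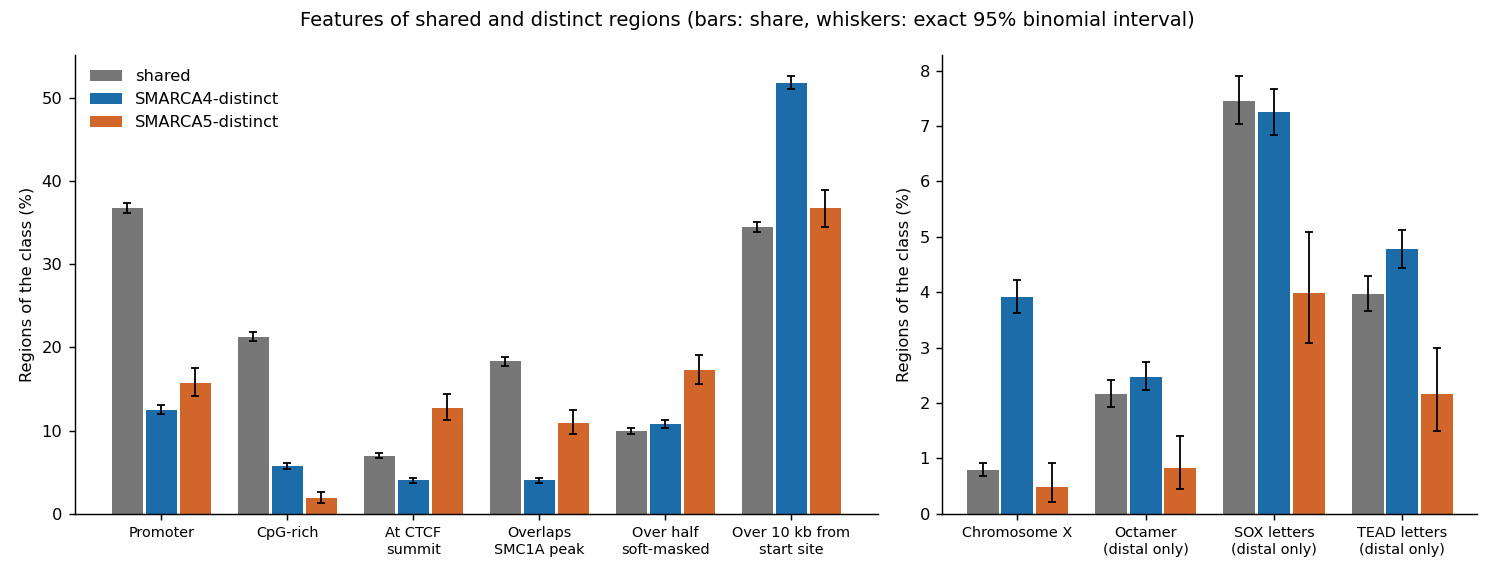
Share of regions (vertical axis, %) with each feature (horizontal axis) in the shared, SMARCA4-distinct and SMARCA5-distinct classes, with exact 95% binomial intervals as whiskers. SMARCA5-distinct regions stand out by CTCF (12.8%) and soft-masked sequence (17.3%), and SMARCA4-distinct ones by distance from start sites (51.8%) and chromosome X (3.92%).

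The lists after 12 h of IAA, which the classes did not use, gave a separate measurement. Of SMARCA4-distinct regions, 83.7% and 80.7% overlapped a SMARCA4 peak at 12 h and 24.3% and 23.6% a SMARCA5 peak, so the groups stayed far apart. Of SMARCA5-distinct regions, 45.9% and 33.1% overlapped a SMARCA5 peak at 12 h and 30.8% and 34.1% a SMARCA4 peak, so here the groups overlapped. For all merged regions the shares were 62.0% and 64.9% in SMARCA4 and 37.6% and 33.2% in SMARCA5. Among SMARCA5-distinct regions at CTCF summits (239 regions) the shares were 16.7% and 13.0% for SMARCA5 and 16.7% and 21.8% for SMARCA4. Away from CTCF (1634 regions) the shares were 50.1% and 36.0% for SMARCA5 and 32.9% and 35.9% for SMARCA4, and the values of replicate 2 were nearly equal. Without chromosomes 8 and X as well, they were 48.9% and 35.2% against 34.0% and 35.9%, with overlap. The 12 h lists covered 89.9 and 95.7 Mb in SMARCA4 and 40.2 and 33.2 Mb in SMARCA5, so the raw shares of the remodelers are not alike. Next to all merged regions, SMARCA4-distinct regions were higher in the SMARCA4 lists and lower in the SMARCA5 lists. SMARCA5-distinct regions were lower in the SMARCA4 lists. In SMARCA5 they were higher in replicate 1 and level in replicate 2. Line and remodeler are not told apart here either.

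The counts of distinct regions also moved with every library. Left out in turn, SMARCA4 replicate 1 gave 4523 and SMARCA5 replicates 1 and 2 gave 13329 and 8259 SMARCA5-distinct regions. Leaving out SMARCA4 replicate 2 gave 2516. SMARCA4-distinct regions numbered 29942 without SMARCA4 replicate 1, 47774 without SMARCA4 replicate 2, 20331 without SMARCA5 replicate 1 and 25611 without SMARCA5 replicate 2. Fewer lists then have to hold or lack the peak, which by construction raises the counts. SMARCA4-distinct regions outnumbered SMARCA5-distinct ones in each of these counts and when all lists were limited to the same length (10589 against 2448).

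Transfer RNA genes ranked high in the SMARCA5 lists and near the middle of the SMARCA4 lists, a comparison added after the strongest SMARCA5-distinct regions had been seen. Of 403 RefSeq tRNA genes, 63.8% and 65.0% had a SMARCA5 peak within 100 bp and 55.1% and 47.1% a SMARCA4 peak, although SMARCA4 peaks are wider. At positions 100 kb away the shares were 9.68% and 10.9% for SMARCA5 and 13.6% and 9.93% for SMARCA4. Summits within 250 bp of the middle of a tRNA gene numbered 92 and 91 in SMARCA5 and 75 and 84 in SMARCA4. Their median percentile was 97.4 and 96.4 in SMARCA5 and 61.4 and 49.5 in SMARCA4. The groups did not overlap and differed by −41.5 percentile points. Left out in turn, the 4 libraries gave −47.4 to −35.5.

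Of the SMARCA5 summits at tRNA genes, 65.2% and 72.5% were in the top 10% of their list, against 5.33% and 4.76% in SMARCA4. The pattern was similar after 12 h of IAA, with median percentiles of 96.6 and 95.7 in SMARCA5 and 51.3 and 46.2 in SMARCA4. CHD4, at 94.2 and 76.1, and CHD8, at 75.4 and 68.2, lay between by this rank. By share of tRNA genes with a peak they were near SMARCA5, with 69.7% and 59.1% in CHD4 and 61.5% and 60.8% in CHD8. CHD4 replicate 1 was thus above both SMARCA5 lists of untreated cells. By region, 67 shared, 8 SMARCA5-distinct and no SMARCA4-distinct regions had their summit at a tRNA gene. A merged region takes its summit from the list that ranks it highest, so these counts depend in part on rank. By gene, 165 of the 403 had a peak in all 4 lists, 24 in both SMARCA5 lists alone, 2 in both SMARCA4 lists alone and 131 in none. Many tRNA genes lie in clusters, where 1 peak can cover several, so the genes are not independent. The B-box letters were in 62.0% of the tRNA genes. They were in the summit windows of 2.56% of SMARCA5-distinct, 0.959% of SMARCA4-distinct, 1.71% of shared and 1.42% of all regions. The letters were in 48 SMARCA5-distinct windows, against 8 regions of this class at tRNA genes, so most of these matches lay elsewhere.

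**Figure D4:**
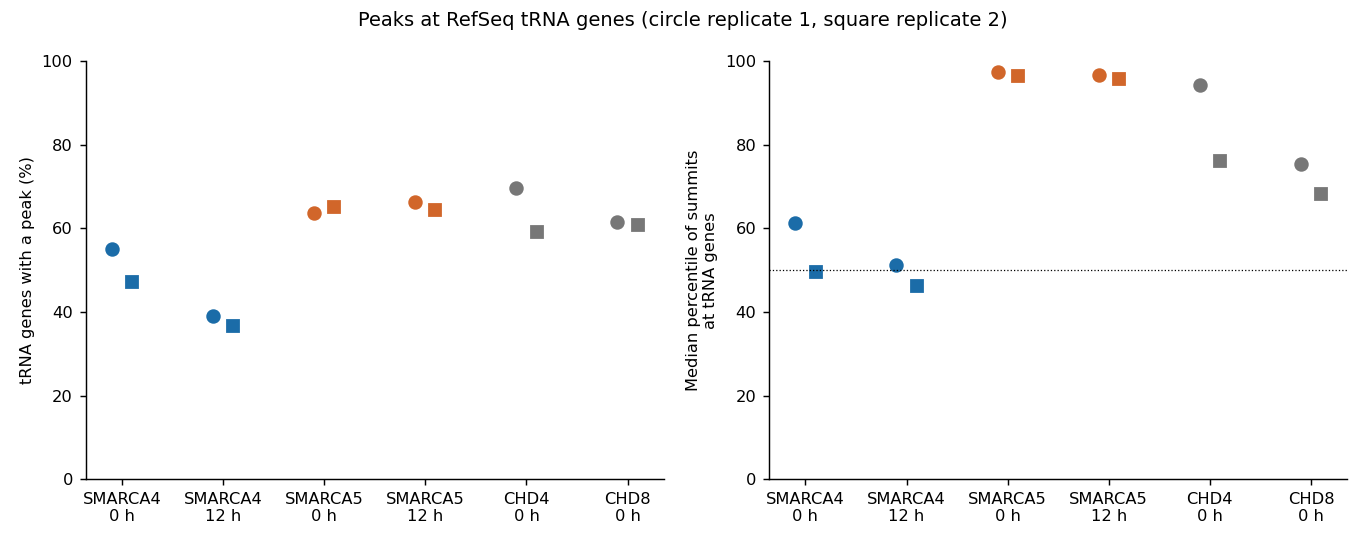
Left, share of 403 tRNA genes with a peak within 100 bp (vertical axis, %). Right, median percentile of the summits at tRNA genes within their list, with a dotted line at 50, for each remodeler and time, with CHD4 and CHD8 in grey (horizontal axis). Circles are replicate 1 and squares replicate 2. SMARCA5 sits between 95.7 and 97.4 on the right, and SMARCA4 between 46.2 and 61.4.

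Some of the regions with the highest rank in SMARCA5 were at such genes. The tRNA comparison was added after the SMARCA5-distinct ones had been seen, so they are no separate support for it. Of the 8 highest-ranked SMARCA5-distinct regions, those near Mir6546 and C230035I16Rik were 137 and 204 bp from a tRNA gene. The region 33136 bp from Rny3, the gene of the small Y3 RNA, had percentiles of 99.7 and 98.7 and fold enrichments of 7.19 and 5.84. The remaining ones lay by Gm15247 and Gm11400 (2 regions each) and Ccr1. The first Gm11400 region reached percentiles of 99.95 and 99.98 with fold enrichments of 4.18 and 4.52. The median fold enrichments of these lists were 3.72 and 3.59. No filter for sequence that is hard to map was applied here. Among shared regions, the largest leads of SMARCA5 were near Acacb, Spink13, Gm34961, Gpx5 and Gm11290, and the Gpx5 region lay 180 bp from a tRNA gene. Of the 100 shared regions with the largest lead of SMARCA5, 8 had their summit at a tRNA gene, against 67 of all 23472. This placing depends in part on rank. At the Acacb region, which is at a CTCF summit, the percentiles were 89.0 and 97.6 in SMARCA5 and 3.75 and 3.59 in SMARCA4. The largest leads of SMARCA4 were near AC131675.1, Gm44995, Gm10856, Gm22286 and Gm43677, all distal. At the first the percentiles were 96.2 and 97.5 in SMARCA4 and 1.12 and 2.07 in SMARCA5.

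Within shared regions, ranks were compared as percentiles of each list. Shared regions hold a smaller part of the SMARCA4 lists than of the SMARCA5 lists and rise with rank in both, so by construction they stand at higher percentiles in SMARCA4. Both SMARCA4 percentiles were above both SMARCA5 percentiles at 9062 of 23472 shared regions (38.6%), and the reverse held at 3199 (13.6%). No lead of either remodeler is read from these counts. The median difference, SMARCA4 minus SMARCA5, was 7.44 percentile points over all shared regions, 8.83 at distal ones, 4.96 at promoters and 3.17 at CTCF summits. At the 67 shared regions at tRNA genes the median difference was −30.6, with SMARCA5 above in both lists at 54 and SMARCA4 above at 2. Each region was placed by the summit of the list that ranks it highest. The distal, promoter, CTCF and tRNA groups thus depend in part on the ranks compared, and no lead is read from them either. Across shared regions the ranks of the SMARCA4 replicates correlated with a Spearman rho of 0.817 and those of the SMARCA5 replicates with 0.539. Between remodelers rho was 0.416 to 0.451. These correlations are descriptions across 23472 regions of the same 4 libraries, which are not independent replicates.

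With a window of 1 kb, promoters made up a larger share of the SMARCA5 lists. A summit within 1 kb of an annotated start site was found for 28.3% and 27.4% of SMARCA5 peaks and for 20.5% and 23.5% of SMARCA4 peaks. The groups did not overlap, and the difference of −5.85 points was larger than the pooled SD between replicates of 1.59 (exact permutation p of 0.333). After 12 h of IAA it was also −5.85 points, without overlap. It was −2.84 points when all lists were limited to the same length. With a promoter window of 500 bp it fell to −0.938 points and the groups no longer separated (exact permutation p of 1), and with 2 kb it was −8.29 points. In distinct regions the direction was not settled. Promoters were 15.8% of SMARCA5-distinct and 12.5% of SMARCA4-distinct regions, a difference of −3.24 points (Newcombe 95% interval −5.03 to −1.58). It was 1.63 points with a 500 bp window, 1.00 without SMARCA5 replicate 1 and 3.43 without SMARCA5 replicate 2.

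The rank of promoter peaks overlapped between the remodelers. The median percentile of promoter peaks minus that of distal peaks was 24.0 and 11.6 in SMARCA4 and 5.19 and 12.2 in SMARCA5 (exact permutation p of 0.667). In the strongest 10% of each list, promoters made up 26.6% and 13.2% in SMARCA4 and 26.99% and 33.4% in SMARCA5, without overlap. Median GC content at summits was 50.2% and 49.8% in SMARCA4 and 48.3% and 49.8% in SMARCA5, also with overlap (exact permutation p of 0.667). CpG-rich windows were 12.4% ± 1.76 of SMARCA4 summits and 10.9% ± 0.291 of SMARCA5 summits (SD, n = 2, exact permutation p of 0.333), and after 12 h of IAA the order was the other way, at 11.3% ± 0.613 and 12.2% ± 0.458 (SD, n = 2).

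At the level of genes, 9127 of 21755 protein-coding genes (42%) had a peak within 1 kb of a start site in all 4 lists. Another 1142 (5.25%) had one in both SMARCA4 lists and neither SMARCA5 list, and 44 (0.202%) the reverse. Genes with CpG-rich promoters were in all lists for 69.7% and others for 17.8%. The SMARCA4-distinct count was 1236 and 2141 without SMARCA4 replicates 1 and 2, and 1605 and 3102 without SMARCA5 replicates 1 and 2. The SMARCA5-distinct count was 353 and 71 without SMARCA4 replicates 1 and 2, and 162 and 92 without SMARCA5 replicates 1 and 2. SMARCA4-distinct genes outnumbered SMARCA5-distinct ones in each of these counts, least so without SMARCA4 replicate 1 (1236 against 353).

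Genes of the pluripotency network were held by both remodelers and ranked high in both. Of 28 listed factors, 23 had a promoter peak in all 4 lists, 2 were SMARCA4-distinct and 3 were mixed. The median percentile of their promoter peaks was 96.8 and 94.4 in SMARCA4 and 90.4 and 87.0 in SMARCA5, while it was 77.4 and 67.1 in SMARCA4 and 66.02 and 73.3 in SMARCA5 over all protein-coding genes, each median being over the genes with a peak in that list. Nanog, which stabilises the undifferentiated state, had percentiles of 99.8 and 99.6 in SMARCA4 and 90.1 and 90.5 in SMARCA5. Esrrb, a nuclear receptor of the same network, had 95.6 and 93.1 against 18.8 and 59.0. Pou5f1, which encodes OCT4, had 99.9 and 99.8 in SMARCA4, no peak in SMARCA5 replicate 1 and 97.8 in replicate 2. The SMARCA4-distinct members were Prdm14, a repressor of differentiation and of DNA methylation, at 92.5 and 93.8, and Nr0b1 (DAX1), at 72.3 and 77.4.

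Regulators of differentiated lineages were in all lists less often than the pluripotency factors (53.1% against 82.1%), and all protein-coding genes for 42%. Of 32 listed, 17 were in all lists, 4 were SMARCA4-distinct (Sox17, Nkx2-2, Pax7 and Isl1), 11 were mixed and none was SMARCA5-distinct. The SMARCA4-distinct share was 12.5%, against 5.25% of all protein-coding genes, and rests on these 4 genes. Nkx2-2, a factor of the ventral neural tube, had percentiles of 93.9 and 91.6 in SMARCA4, and Sox17, an endoderm factor, had 1.32 and 7.08. All 32 had a peak in SMARCA4 replicate 1, 28 in replicate 2, and 19 and 25 in the SMARCA5 lists. Of the 39 Hox genes, 24 were in all lists and 1, Hoxb2, was SMARCA5-distinct, at 49.1 and 66.03.

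Clustered histone genes, expressed in S phase, leaned to SMARCA5 by rank. Of 67, 53 were in all lists and none was distinct for either remodeler, and their median percentile was 92.8 and 88.0 in SMARCA5 and 81.1 and 72.9 in SMARCA4. Ribosomal protein genes were in all lists for 62 of 76, with 2 SMARCA4-distinct members, Rpl10 and Rpl39, both on chromosome X. Genes of the remodelers' own complexes were mostly in all lists, with 23 of 28 BAF subunits and 12 of 13 ISWI subunits. Of these lists, Actl6b, the neuronal BAF subunit, was SMARCA4-distinct at 72.5 and 84.4, and Smarca1, the second ISWI ATPase, had no promoter peak in any list. The CTCF and cohesin genes were in all lists for 12 of 15, with Stag2, on chromosome X, SMARCA4-distinct at 81.7 and 79.8.

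The shares in these lists are to be read against 42% of all genes and 69.7% of genes with CpG-rich promoters. Genes in all lists were also 14 of 18 Wnt targets, 11 of 15 Nodal and BMP targets, 13 of 18 p53 targets, 42 of 78 mitochondrial ribosomal protein genes, 24 of 39 proteasome genes and 13 of the 20 imprinted genes found. The SMARCA4-distinct members were Cdx4 among Wnt targets, Lefty2 and Dusp9 among Nodal and BMP targets, and Btg2 among p53 targets. Lefty2, a Nodal inhibitor, stood at 61.02 and 58.3 in SMARCA4. Among imprinted genes Nap1l5 was SMARCA4-distinct and Plagl1, a zinc-finger gene, SMARCA5-distinct at 21.4 and 36.7. Of 1093 olfactory receptor genes, 2 were in all lists, 8 were SMARCA4-distinct and 1068 were in no list. Keratin genes, with 4 of 49 in all lists, and vomeronasal receptor genes, with 2 of 327, were also mostly without a peak. For cell types that could be present, 5 of 9 primitive endoderm, 5 of 8 trophectoderm and 1 of 8 fibroblast markers had a promoter peak in all lists. A promoter peak does not show that a gene is expressed, so these lists do not identify other cells.

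The highest-ranked SMARCA4-distinct genes were Lax1, Igll1, Hrh2, Slc7a3, Vmn1r1, Ror1, Prdm14, Nkx2-2, Cldn14 and Armcx1, with mean percentiles from 99.9 down to 91.6. Lax1, a lymphocyte signalling adaptor, stood at 99.91 and 99.95. All 10 had a SMARCA4 promoter peak in both 12 h lists. Each of the 10 but Ror1 also had a SMARCA5 promoter peak in at least 1 of the 12 h lists, and Igll1, Slc7a3, Prdm14 and Cldn14 had one in both. Over all 1142 SMARCA4-distinct genes, 89.2% and 91.2% had a SMARCA4 promoter peak at 12 h, and 47.2% and 39.4% a SMARCA5 one. The highest-ranked SMARCA5-distinct genes ranked lower, with mean percentiles from 84.6 down to 68.1. They were Dhx57 and Morn2, a pair that shares 1 promoter peak, A430033K04Rik, Ndufb7, Ptger1, Ushbp1, Haus5, Zfp618, Dnajc12 and Asmt. Ndufb7, a subunit of respiratory complex I, stood at 74.5 and 76.8. After 12 h of IAA, each of these but Asmt had a SMARCA4 promoter peak in at least 1 list, and A430033K04Rik, Ndufb7, Zfp618 and Dnajc12 had one in both. Over all 44, 68.2% and 70.5% had a SMARCA4 promoter peak at 12 h, and 77.3% and 59.1% a SMARCA5 one, with overlap.

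Summits of both remodelers around CTCF lay more often on the 3′ side of its motif than on the 5′ side. The CTCF motif was found at 90.5% of the 29926 CTCF peaks of untreated cells and at 5.00% of positions shifted by 100 kb. It has a direction, read here on its G-rich strand as printed above. Within 500 bp of a motif and more than 50 bp from its centre, 70.0% and 63.5% of SMARCA4 summits and 64.9% and 66.2% of SMARCA5 summits were on the 3′ side. For summits shifted by 100 kb the share was 50.6% and 50.7% in the SMARCA4 lists. The groups overlapped in this share. After 12 h of IAA it was 55.2% and 57.8% in SMARCA4 and 55.1% and 54.7% in SMARCA5, just without overlap. CHD4 had 64.1% and 57.9%, CHD8 58.2% and 57.4% and SMC1A, with 1 library, 41.4%. These positions relative to the motif were added after the lists had been seen, and no test is given for them.

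By median distance, SMARCA5 summits lay farther from the motif than SMARCA4 summits, but their fullest bins met. Of 20 bp bins, the fullest was 180 to 200 and 120 to 140 bp in SMARCA4. In SMARCA5 it was 260 to 280 and 180 to 200 bp, so SMARCA4 replicate 1 and SMARCA5 replicate 2 had the same bin. On the 3′ side, between 50 and 400 bp, the median distance from the motif centre was 188 and 175 bp in SMARCA4 and 227 and 215 bp in SMARCA5. The groups did not overlap, and the difference of −39.5 bp was larger than the pooled SD of 8.85 bp. It was −46.0 to −33.0 bp with each library left out in turn. The same order held at CTCF sites with an SMC1A peak (185 and 175 against 230 and 215 bp) and without one (192 and 176 against 224 and 214 bp). It also held at CTCF sites more than 1 kb from start sites (184 and 168 against 226 and 211 bp). After 12 h of IAA the distances were 209 and 194 against 214 and 222 bp, still without overlap but 16.5 bp apart. SMARCA4 peaks are wider than SMARCA5 peaks, and the part of width in this distance was not tested. No value for shifted summits is given for this distance. A median over a fixed window also moves with the share of summits that are not placed by CTCF, which was not tested.

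**Figure D5:**
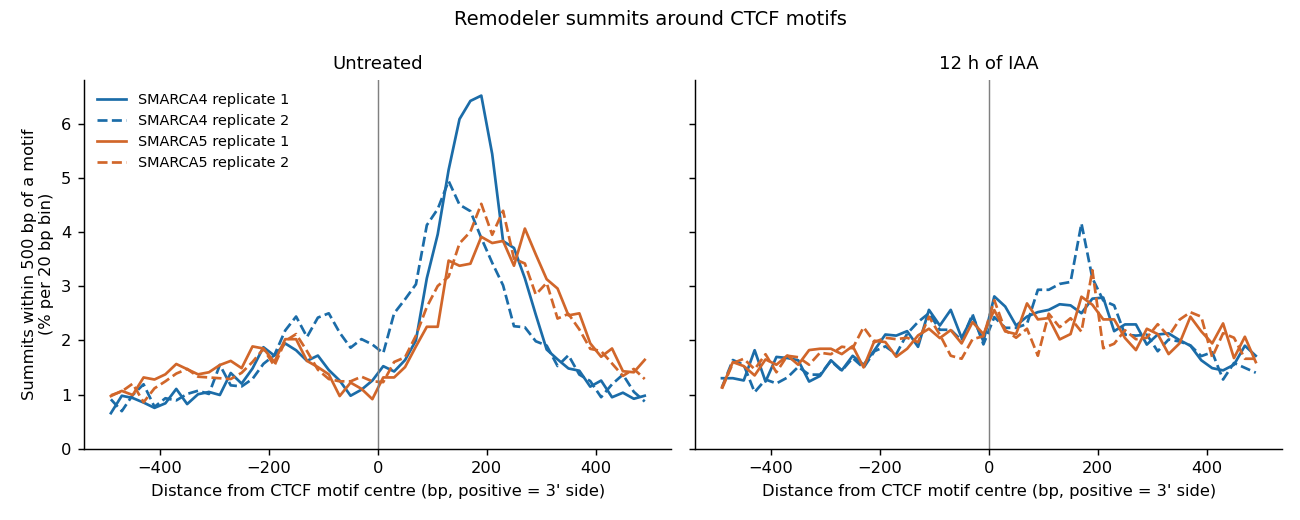
Summits within 500 bp of a CTCF motif, as percent per 20 bp bin (vertical axis), by distance from the motif centre with the 3′ side positive (horizontal axis), in untreated cells (left) and after 12 h of IAA (right). Solid lines are replicate 1 and dashed lines replicate 2. In untreated cells the curves rise on the 3′ side, with the SMARCA4 median at 188 and 175 bp and the SMARCA5 median at 227 and 215 bp, and at 12 h they are flatter.

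At the main settings, CTCF sites did not separate the remodelers by share or rank in untreated cells. A summit within 250 bp of a CTCF summit was found for 6.004% and 5.78% of SMARCA4 peaks and 5.74% and 6.22% of SMARCA5 peaks (exact permutation p of 1). Of these summits, 74.8% and 62.7% in SMARCA4 and 72.2% and 71.7% in SMARCA5 were more than 100 bp away, against 62.8% and 59.6% and 60.8% and 59.8% for summits shifted by 100 kb. SMARCA4 replicate 2 stood apart here, close to its shifted value, and without it the difference turned from −3.20 to 2.87 points. The median percentile of peaks at CTCF was 52.3 and 49.7 in SMARCA4 and 51.1 and 51.9 in SMARCA5. CTCF sites were thus near the middle of the ranks in both. The rank difference, SMARCA4 minus SMARCA5, was −0.542 points. It was −2.89 at a −log10 q of at least 5 and −4.38 with equal list lengths. With CTCF peaks over 1 kb from start sites it was −3.44, and in these settings the groups did not overlap. Of the alternatives for this rank, 2 reversed its direction. After 12 h of IAA the difference was 4.87 points, also without overlap.

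Counted by CTCF site, a peak over the 201 bp around the summit was present in all 4 lists at 2162 of 29926 sites (7.22%), in SMARCA4 alone at 1807 (6.04%) and in SMARCA5 alone at 258 (0.862%). No list had a peak at 18168 sites (60.7%). SMC1A was present at 53.7% of sites in all 4 lists, 55.3% of SMARCA4-distinct and 44.2% of SMARCA5-distinct sites (exact 95% interval 38.0 to 50.5), against 40.8% of the sites in no list. Promoters made up 44.8%, 31.8%, 12.8% and 5.00% of these 4 groups of sites in the same order. Of the sites with a motif and summits of both lists of 1 remodeler but no peak of the other, 299 of 531 in SMARCA4 and 105 of 169 in SMARCA5 had both summits on the 3′ side. At 97 and 26 of them both were on the 5′ side.

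Chromosomes 8 and X differed between the remodelers in a way that touches the counts above. Chromosome X held 1.72% and 2.02% of SMARCA4 peaks and 0.795% and 0.737% of SMARCA5 peaks. Chromosome 8 held 5.31% and 5.19% of SMARCA4 peaks and 7.64% and 7.31% of SMARCA5 peaks. Neither overlapped between the groups, and the ratio of SMARCA5 to SMARCA4 was 0.410 on X and 1.42 on chromosome 8, while on the other chromosomes it was 0.905 to 1.11. After 12 h of IAA the same lines gave 1.86% and 1.62% against 0.989% and 0.973% on X, and 5.16% and 5.27% against 7.37% and 7.05% on chromosome 8. In the CHD4 and CHD8 libraries of untreated cells chromosome 8 held 5.27% to 5.65% of peaks and X held 1.29% to 2.02%.

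Of the SMARCA4-distinct genes, 150 of 1142 (13.1%) were on X, against 4.36% of all protein-coding genes and 0.548% of genes in all lists. Of the SMARCA5-distinct genes, 7 of 44 (15.9%) were on chromosome 8, against 4.78% of all. Among SMARCA5-distinct regions 13.9% lay on chromosome 8, and among SMARCA4-distinct regions 3.29%. The genes Slc7a3, Armcx1, Nr0b1, Rpl10, Rpl39, Stag2, Dusp9 and Cdx4 named above are on X, as is the SMARCA5-distinct Asmt, and Ndufb7, Ptger1 and Ushbp1 are on chromosome 8. The files do not give the number of copies of these chromosomes in each line, and its part in the counts was not tested. Without both chromosomes there were 15582 SMARCA4-distinct and 1603 SMARCA5-distinct regions, 978 and 36 distinct genes, and the differences were −6.19 points for the promoter share, −40.5 bp for the 3′ distance and −42.2 percentile points at tRNA genes.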

How the data were processed

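Sequencing reads of ChIP libraries were processed by the authors, and the submitters' processing notes name Trim Galore, Bowtie2, MACS2 and deepTools and the build mm10 (GRCm38). Versions, the caller's control and its threshold are not given in the sources used here. Each deposited list holds, per the file headers and layout of a narrowPeak file, a fold enrichment (a ratio), a −log10 p-value and a −log10 q-value per peak, called per library. These are the authors' own values, and ranks between lists of unequal length show no change in binding. Read depth is unknown.

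Peaks on chromosomes 1 to 19 and X were merged with an overlap of at least 1 bp and matched to GENCODE M21 start sites, RefSeq tRNA genes and the RefSeq GRCm38.p6 sequence with Python 3.11.15, numpy 2.4.6, pandas 2.3.3, scipy 1.17.1 and pysam 0.24.0. The steps were tested on simulated data. Exact 95% intervals are Clopper-Pearson. Regions and genes named are those with the highest mean percentile in each class (8 regions and 10 genes), and the 5 shared regions with the largest lead of either remodeler. The members, gene lists and motifs were chosen with earlier results of these data known. Alternatives varied the q threshold, list length, peak width, promoter window, CTCF peaks, libraries and chromosomes. Some sequences are not reported here.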

Additional observations from a re-analysis of the deposited data

How the results depend on the processing

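Of 220 recomputed values, 161 kept their direction or, for shares of regions, stayed within the counting interval, and counts stayed within 1.5 times. These include the replicate block of each difference between libraries, which leaves the value unchanged by construction. The promoter share, the 3′ distance, the tRNA rank, the chromosome shares and the Jaccard difference kept their direction under each alternative run for them, though not their size: the promoter share difference ran from −8.29 (2 kb window) to −0.938 (500 bp window). The replicate number did not pair the libraries (r = 0.00592 over all regions and −0.0218 over shared ones). A replicate block changes only the p, which was 0.5 for the promoter share difference of −5.85 (exact sign-flip test).

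At a −log10 q of at least 5 there were 7988 shared and 270 SMARCA5-distinct regions, 3439 SMARCA4-distinct genes and 3201 genes in all lists, and the 3′ side difference was −0.693. With equal list lengths the CTCF share difference was 0.0964, with 10589 SMARCA4-distinct regions and 185 SMARCA5-distinct genes. With summit windows there were 7084 shared and 11623 SMARCA5-distinct regions, 213 SMARCA5-distinct genes, and class differences of −9.38 for promoters and −0.0475 for CTCF. A promoter window of 500 bp gave 1.63 and one of 2 kb −10.2. With CTCF peaks at or above the median −log10 q the CTCF share difference was 0.0266 and the class difference −6.35. With CTCF peaks over 1 kb from start sites the 3′ side difference was −0.311.

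The 4 lists of untreated cells name their peaks in either of 2 ways, target first in replicates 1 and time first in replicates 2. Within the former, the CTCF share difference was 0.264, the flank share 2.63 and the CTCF rank 1.152, with 61079 and 9823 distinct regions, 4414 and 136 distinct genes, and class differences of −0.511 for promoters and −2.74 for CTCF. Within the latter, the promoter rank difference was −0.674, the 3′ side difference −2.69 and the GC difference 0, with 34655 and 23285 distinct regions, 1716 and 784 distinct genes, and a CTCF class difference of −4.33. The cause was not tested. Fewer lists per class raise the counts by construction.

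With each library left out in turn, the CTCF share difference ran from −0.332 to 0.153, the flank share from −9.27 to 2.87, the CTCF rank from −1.82 to 0.739 and the 3′ side share from −2.03 to 4.46. The class differences ran from −11.2 to 3.43 for promoters and from −7.87 to −3.26 for CTCF. SMARCA4-distinct regions ran from 20331 to 47774, SMARCA5-distinct regions from 2516 to 13329, and the distinct genes from 1236 to 3102 and from 71 to 353.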
